A study of Mus musculus with 4 samples.

Results

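Mouse genes whose symbol begins with 1700 and ends in Rik still carry the clone name given by the RIKEN full-length cDNA project, in which the 1700 prefix marks the adult testis library. The name records where a transcript was cloned and not what it does, so the group mixes uncharacterised protein-coding genes, long non-coding RNAs and a few pseudogenes. Many such transcripts are known from meiotic and post-meiotic male germ cells, in which a large part of the genome is transcribed. A clone drawn from an adult testis can come from a spermatid, a stage that the first wave of spermatogenesis has not reached at postnatal day 14, when the most advanced germ cells of a normal testis are pachytene spermatocytes.

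The members described here are the genes with such a symbol and a mean estimated count of at least 100 over the 4 libraries, which was met by 110 of 527 genes with a 1700 Rik symbol and of 55335 genes in all. Poly(A) RNA was sequenced from testes of Znhit1_KO mice (2 libraries) and CTRL mice (2 libraries) at postnatal day 14. The product of Znhit1 works in SRCAP, a remodeller that loads H2A.Z into nucleosomes, and the stated aim was to learn how it affects gene expression. The labels give testis as the tissue, while the design text speaks of germ cells. They name no Cre driver, alleles or strain for either group, and each library is described as an independent biological replicate.

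Total counts were 157790457 and 136732861 in the Znhit1_KO libraries, against 129531714 and 136178177 in the CTRL libraries. Levels below are counts scaled to library size (CPM, with TMM factors from edgeR) unless the authors' TPM is named, and n is 2 in each group. Znhit1 itself had 3.15 and 2.14 CPM in Znhit1_KO testes, against 17.3 and 31.9 CPM in CTRL testes, a log2 change of -3.22 (SE 0.403), so the labels match the targeted gene, although they do not say which part was deleted.

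The members were chosen by their symbol and by their counts, averaged over both groups. Of the 110 members, 18 reached a mean of 100 in the CTRL libraries but not in the Znhit1_KO libraries, and 2 in the Znhit1_KO libraries but not in the CTRL libraries, so these 20 had to differ. Counts and medians over the members are therefore descriptions. Just inside the limit were 1700030C12Rik, with 19 and 76 counts in Znhit1_KO and 58 and 247 in CTRL, and 1700016F12Rik, with 86 and 127 in Znhit1_KO and 90 and 113 in CTRL. Just outside were 1700007K13Rik, with 127 and 148 counts in Znhit1_KO and 54 and 46 in CTRL, and 1700066O22Rik, with 93 and 148 in Znhit1_KO and 56 and 69 in CTRL. Of the 417 genes under the limit, 159 had no count in any library and 137 passed the filter on low counts.

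Most members had lower levels in Znhit1_KO testes than in CTRL testes. In 60 of the 110 members each Znhit1_KO value was under each CTRL value, against 21.3% of all 24116 genes tested, and in 10 members each was over, against 21.8% of all genes. Among the 16621 tested genes with a mean count of at least 100 the shares were 22% and 23.5%. The median log2 change was -0.74 over the members (quartiles -1.65 and -0.17), with 90 of 110 negative, beside 0.03 over all genes tested. A log2 change of -1 or less was found in 47 members, against 8.88% of all genes and 5.96% of those with a mean count of at least 100. One of 1 or more was found in 2 members, against 4.79% and 1.26%. Over the 90 members that reached the mean count in both groups the median was -0.54, and 46 were lower and 8 higher without overlap.

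No member passed edgeR's quasi-likelihood test at a Benjamini-Hochberg adjusted p of 0.05, where the lowest adjusted p was 0.264 and 0% of all genes passed. At an unadjusted p under 0.05 edgeR's test held 42 members that were lower and 1 that was higher, against 7.75% and 2.99% of all genes, and 8.81% and 3.64% of those with a mean count of at least 100. DESeq2, the alternative test, called 30 members lower and 1 higher at an adjusted p of 0.05, against 3.81% and 0.411% of all genes, and 4.61% and 0.469% of those with a mean count of at least 100. The authors' deposited table marks 29 members as lower and 1 as higher, against 3.22% and 0.277% of its 25236 genes. Leaving out CTRL replicate 1, edgeR called 25 members lower at an adjusted p of 0.05, among 754 of all genes called in either direction. Leaving out CTRL replicate 2 it called 0 members and 0 of all genes, with 19 lower at an unadjusted p under 0.05. The deposited table also rests on DESeq2 and the same counts, so the 2 sets of calls are not independent. For 1700051A21Rik both gave a log2 change of -5.103 and a DESeq2 adjusted p of 7.385e-16. All 29 marked lower in the deposited table were also called lower by DESeq2 here, where no limit on the log2 change was set. Below, "lower" and "higher" of a single gene describe its values, and the test that it passed or missed is named beside it.

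**Figure D1:**
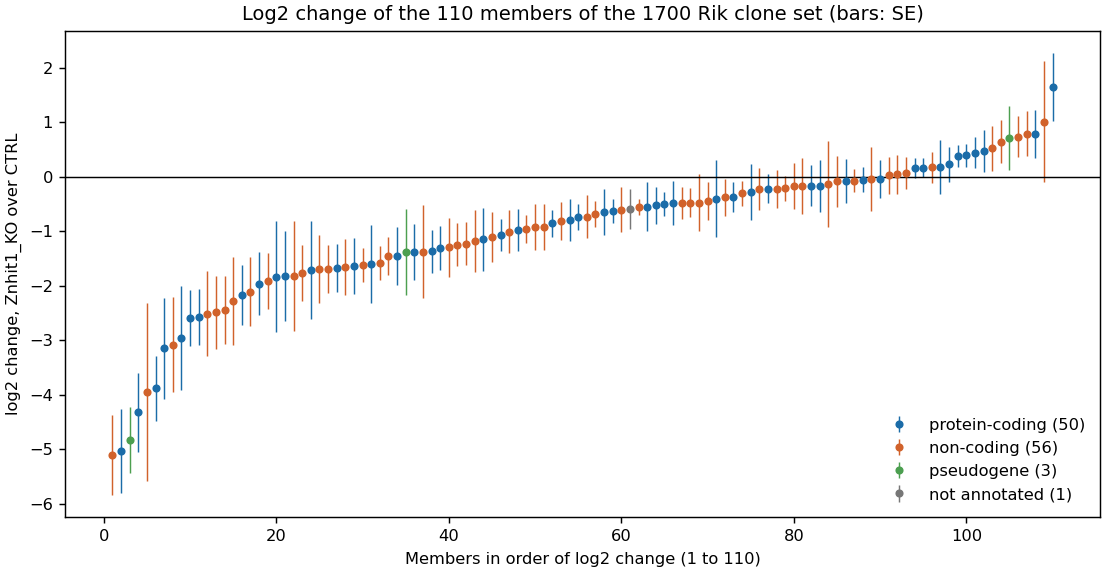
Log2 change (Znhit1_KO over CTRL, edgeR) of each of the 110 members in rising order, with its SE, coloured by annotation class. The values run from -5.10 to 1.65, 90 lie below 0, and 2 reach 1.

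**Figure D2:**
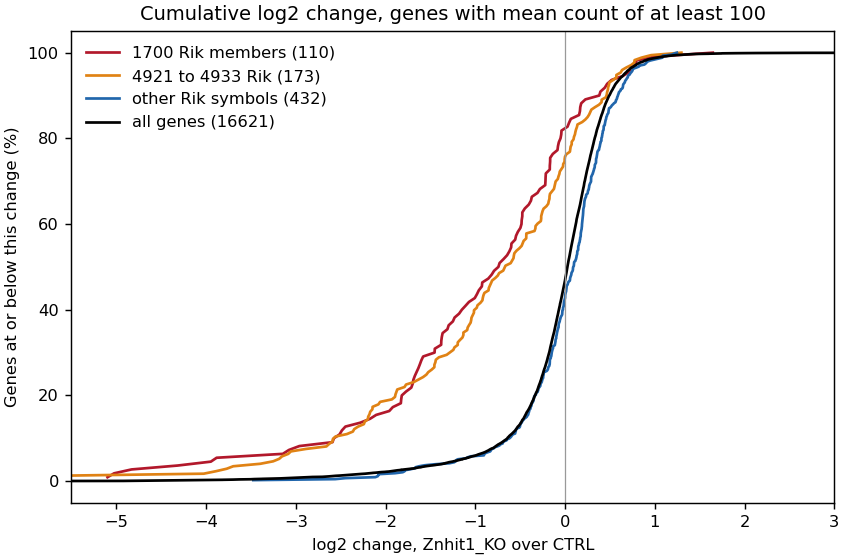
Cumulative share of genes (vertical axis) by log2 change of Znhit1_KO over CTRL (horizontal axis) for the members (1700 Rik), the other testis clone series, the remaining Rik symbols and all genes, each with a mean count of at least 100. The members' median is -0.74 and that of all such genes 0.03.

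Among protein-coding members, 24 of 50 were lower and 6 higher without overlap, with a median log2 change of -0.69, beside 0.03 for all 14319 protein-coding genes with a mean count of at least 100, of which 22.1% were lower and 24.6% higher without overlap. The lowest was 1700123L14Rik (chr6:96164497-96166243, minus strand of mm10, a single exon), with 0.241 and 0.814 CPM in Znhit1_KO testes, against 10.1 and 24.1 CPM in CTRL testes. Its level was 32.5-fold lower in Znhit1_KO testes, and DESeq2's adjusted p was 1.38e-15. The log2 change of -5.03 became -4.27 when CTRL replicate 2 was left out. Leaving out Znhit1_KO replicate 1 gave -4.41, and leaving out Znhit1_KO replicate 2 gave -6.17. RefSeq lists it as a transcribed pseudogene with Nup50 as a synonym, Nup50 being a component of the nuclear pore, so its coding status differs between annotations.

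1700017D01Rik (chr19:11096816-11130876, minus strand) is named Ms4a20 in RefSeq, a member of the MS4A family of membrane-spanning proteins. It had 0.247 and 0.346 CPM in Znhit1_KO testes, against 2.61 and 9.21 CPM in CTRL testes, a log2 change of -4.32 (SE 0.721) with a DESeq2 adjusted p of 1.27e-10. 1700074P13Rik (chr6:40920437-40940557, minus strand) had 0.747 and 1.36 CPM in Znhit1_KO testes, against 8.79 and 22.3 CPM in CTRL testes, with a DESeq2 adjusted p of 1.15e-12. In all 3 of these genes the 2 Znhit1_KO values lay far under the lower CTRL value, while the CTRL values themselves differed by more than 2-fold. Without CTRL replicate 2 the log2 changes of 1700017D01Rik and 1700074P13Rik were -3.14 and -3.06, beside -4.32 and -3.88 with all libraries, and without CTRL replicate 1 that of 1700017D01Rik was -4.96.

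1700029F12Rik (chr13:97021864-97034362, minus strand) had 0.88 and 4.66 CPM in Znhit1_KO testes, against 9.81 and 33.3 CPM in CTRL testes. Its groups did not overlap, but both were wide, and DESeq2's adjusted p was 0.244. 1700028J19Rik (chromosome 7), called a long non-coding RNA by RefSeq, had 4.85 and 6.54 CPM in Znhit1_KO testes, against 18.5 and 50.2 CPM in CTRL testes, a log2 change of -2.59 (SE 0.515). Over 422 bases its transcript is 95.97% identical to Gm10109, so its reads may be split between both. 1700021F07Rik (chromosome 2) had 0.475 and 0.461 CPM in Znhit1_KO testes, against 1.72 and 3.87 CPM in CTRL testes. These last 2 were called lower by DESeq2. Without CTRL replicate 2 their log2 changes were -1.70 and -1.87, beside -2.59 and -2.58 with all libraries.

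Members with a functional name were chosen after their values were seen. 1700016K19Rik (chromosome 11) has the RefSeq synonym Liat1, a ligand of the arginyltransferase ATE1 that modifies protein N termini. It had 2.25 and 4.13 CPM in Znhit1_KO testes, against 6.05 and 13.8 CPM in CTRL testes, a log2 change of -1.64 (SE 0.513) with a DESeq2 adjusted p of 0.0174. 1700021F05Rik (chromosome 10) is Mtres1 in RefSeq, a mitochondrial RNA-binding protein. It had 10.6 and 11.2 CPM in Znhit1_KO testes, against 14.7 and 18.7 CPM in CTRL testes, and missed DESeq2's threshold at an adjusted p of 0.234.

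1 of the 3 pseudogenes was lower without overlap. 1700001J11Rik (chr9:40050365-40053028, plus strand), a transcribed processed pseudogene, had 0.209 and 0.259 CPM in Znhit1_KO testes, against 3.69 and 9.66 CPM in CTRL testes. Its log2 change of -4.83 (SE 0.6) had the lowest edgeR p of any member, 0.000349 before adjustment, and the change was -3.97 without CTRL replicate 2. It is 96.21% identical to Gm7444 over 2428 bases, so the counts of the pair may be mixed. In all, 9 members had such a copy.

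Among non-coding members, 34 of 56 were lower and 4 higher without overlap, with a median log2 change of -0.77, beside 0.08 for all 1373 non-coding genes with a mean count of at least 100, of which 308 were lower and 233 higher without overlap. The 21 intergenic non-coding RNAs had a median of -1.25, 20 of them were negative, and 13 were lower and 0 higher without overlap. The 17 annotated as antisense had a median of -0.48, with 11 lower and 3 higher.

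The lowest of all members was 1700051A21Rik (chr11:72266421-72268575, plus strand, 3 exons), a processed transcript. It had 0.215 and 0.295 CPM in Znhit1_KO testes, against 3.9 and 13.6 CPM in CTRL testes, a log2 change of -5.10 (SE 0.731) with a DESeq2 adjusted p of 7.38e-16. The change was -3.93 when CTRL replicate 2 was left out and -5.74 with CTRL replicate 1 left out. Its exons share 473 bases with Slc13a5, a citrate transporter gene on the opposite strand. 1700047G03Rik (chromosome 15) had 0 and 0.259 CPM in Znhit1_KO testes, against 0.704 and 3.26 CPM in CTRL testes. Its log2 change of -3.95 carries an SE of 1.62, and it passed neither test.

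1700064M15Rik (chromosome 12) had 0.329 and 0.598 CPM in Znhit1_KO testes, against 1.03 and 4.26 CPM in CTRL testes, with a DESeq2 adjusted p of 0.011. Its log2 change of -2.51 became -1.15 when CTRL replicate 2 was left out and -3.20 when CTRL replicate 1 was. 1700104B16Rik (chromosome 8) had the closest replicates of the members with the lowest p, with 1.08 and 1.11 CPM in Znhit1_KO testes and 3.07 and 3.64 CPM in CTRL testes. Its log2 change was -1.62 (SE 0.313), and DESeq2's adjusted p was 0.000521.

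**Figure D3:**
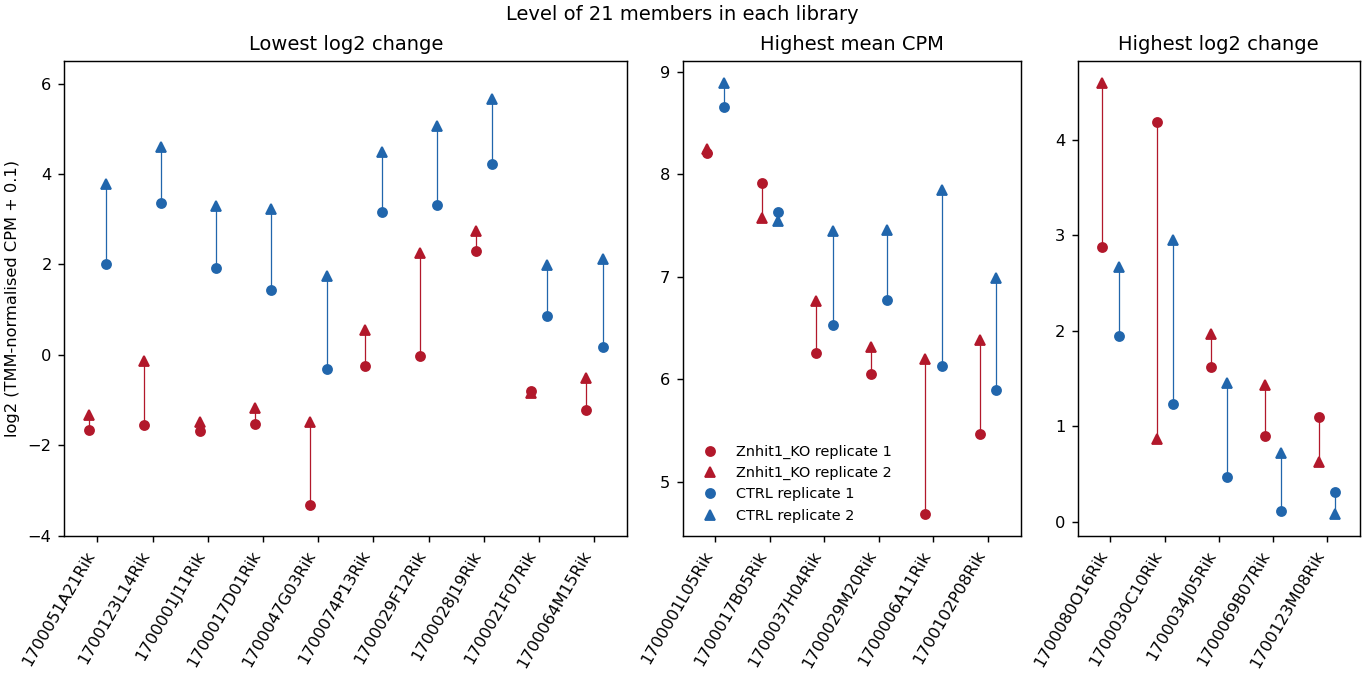
Log2 CPM, with 0.1 added, of 21 members in each of the 4 libraries, Znhit1_KO in red and CTRL in blue, with a line joining replicates. The groups are apart in all 10 members with the lowest log2 change, overlap in 4 of the 6 most abundant, and the 1700030C10Rik shown is the copy ENSMUSG00000099759.1.

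Levels between genes are compared in the authors' TPM, which divides by transcript length. The median of the members' mean TPM was 8.13, 39 members were under 5 TPM and 8 were over 100 TPM. The most abundant was the intergenic RNA 1700001L05Rik (chromosome 15), with 201 and 202 TPM in Znhit1_KO testes, against 286 and 289 TPM in CTRL testes. In CPM its log2 change was -0.56 (SE 0.154), without overlap, with an unadjusted edgeR p of 0.0137 and a DESeq2 adjusted p of 0.185.

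Among the other 5 members with the highest CPM, 1700029M20Rik (an intergenic RNA on chromosome 4) was the only one without overlap, with 66.4 and 79.8 CPM in Znhit1_KO testes, against 110 and 175 CPM in CTRL testes. DESeq2 called it at an adjusted p of 0.0387, while the authors' deposited table, with the same adjusted p, does not mark it. Its log2 change there was -0.96, and the weakest change marked lower among the members was -1.075, that of 1700030K09Rik. 1700006A11Rik (chromosome 3) had 25.7 and 73.3 CPM in Znhit1_KO testes, against 69.8 and 231 CPM in CTRL testes, so the higher Znhit1_KO value passed the lower CTRL value. 1700037H04Rik (chromosome 2) had 76.6 and 108 CPM in Znhit1_KO and 92.5 and 174 CPM in CTRL. 1700102P08Rik (chromosome 9) had 44.2 and 83.6 CPM in Znhit1_KO and 59.4 and 127 CPM in CTRL. 1700017B05Rik (chromosome 9) had 241 and 190 CPM in Znhit1_KO and 198 and 187 CPM in CTRL. The log2 changes of these last 3 were -0.53, -0.55 and 0.17, and each was within 2 SE of 0. That of 1700017B05Rik was -0.20 when the libraries were scaled to Sertoli cell genes.

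A few well-measured members had close to the same level in all 4 libraries. 1700048O20Rik had 11.4 and 13.2 CPM in Znhit1_KO testes and 12.3 and 13.5 CPM in CTRL testes. 1700123O20Rik had 21.03 and 23.6 CPM in Znhit1_KO testes and 18.9 and 21.2 CPM in CTRL testes, and 1700013H16Rik 22.5 and 31.8 CPM in Znhit1_KO testes and 26.9 and 29.4 CPM in CTRL testes. Their log2 changes were -0.07, 0.16 and -0.05, with SEs of 0.209, 0.187 and 0.226, and that of 1700123O20Rik was -0.18 with scaling to Sertoli cell genes.

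The highest log2 change belonged to 1700080O16Rik (chrX:51968695-51972772, minus strand), a protein-coding gene with 7.24 and 24.1 CPM in Znhit1_KO testes, against 3.75 and 6.28 CPM in CTRL testes. The change of 1.65 (SE 0.616) was called higher by DESeq2 at an adjusted p of 0.0436, and the Znhit1_KO replicates differed from each other by more than 3-fold. Without Znhit1_KO replicate 2 the change was 0.50 (edgeR adjusted p 0.845), and without Znhit1_KO replicate 1 it was 2.25. The 5 X-linked members had a median log2 change of 0.38, with 0 lower and 3 higher without overlap. All 691 X-linked genes with a mean count of at least 100 had a median of 0.22, with 83 lower and 268 higher without overlap, and 2 of the 5 members had negative changes. The other 2 higher X-linked members, 1700011M02Rik and 1700018G05Rik, were chosen after their values were seen. They had log2 changes of 0.38 (SE 0.201) and 0.44 (SE 0.285). The 104 members on the 19 autosomes had a median of -0.84, with 59 lower and 7 higher. With scaling to Sertoli cell genes, which shifted the median of all genes to -0.32, 1 of all 110 members was higher without overlap.

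Next came 1700030C10Rik, a symbol carried by 2 overlapping entries on chromosome 12. The entry ENSMUSG00000099759.1 had 18.1 and 1.73 CPM in Znhit1_KO testes, against 2.24 and 7.64 CPM in CTRL testes, and the entry ENSMUSG00000091071.2 had 5.69 and 2.12 CPM in Znhit1_KO and 3.14 and 1.63 CPM in CTRL. The first Znhit1_KO library was the highest for both entries, the groups overlapped in both, and without that library the first entry's log2 change was -1.53. 1700034J05Rik had 2.97 and 3.82 CPM in Znhit1_KO and 1.28 and 2.64 CPM in CTRL. 1700069B07Rik had 1.77 and 2.59 CPM in Znhit1_KO and 0.978 and 1.54 CPM in CTRL. 1700123M08Rik, identical to Gm10604 over 270 bases, had 2.04 and 1.44 CPM in Znhit1_KO and 1.14 and 0.958 CPM in CTRL. These last 3 were higher without overlap and passed neither test.

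Exons of 42 members overlap a gene on the opposite strand. The sources used here do not say whether the counting used strand, so reads from the shared bases cannot be told apart. Per pair, these bases made up 0.324% to 48.5% of the member's exon length. Of 39 members with a tested partner, 20 had under 5% of the partner's CPM. The members' median log2 change was -0.69 and the partners' was -0.11. Log2 changes of members and partners had a Pearson correlation of 0.70, and 26 of the 39 pairs had the same sign. Of the 13 such members at a log2 change of -1 or less, 6 had a partner at -1 or less, and 6 had a partner between -0.5 and 0.5.

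Examples of either kind were chosen after their values were seen. Slc13a5 had a log2 change of -4.73 (SE 0.703) beside -5.10 for 1700051A21Rik. Dnah8, an axonemal outer arm dynein heavy chain, had -1.85 beside -1.11 for 1700097N02Rik. Stk33, a kinase needed for the mouse sperm tail, had -1.30 beside -1.45 for 1700095J03Rik. By contrast Ak3, a mitochondrial adenylate kinase, had 0.21 beside -2.45 for 1700018L02Rik, which had 1.41 and 1.82 CPM in Znhit1_KO testes, against 3.99 and 13.7 CPM in CTRL testes. Srcap, the ATPase of the complex that holds ZNHIT1, had -0.12 beside -0.69 for 1700008J07Rik. The 64 members with no exon overlap on either strand had a median of -1.17, with 33 lower and 4 higher.

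**Figure D4:**
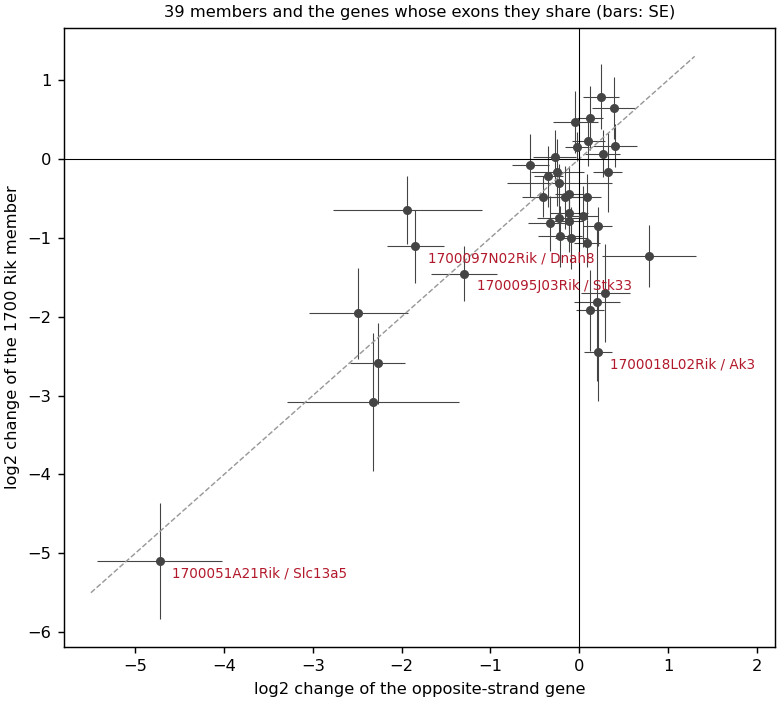
Log2 change of Znhit1_KO over CTRL for 39 members (vertical axis) and for the opposite-strand gene whose exons they share (horizontal axis), with SEs and the line of equal change. Some pairs lie along the line down to 1700051A21Rik and Slc13a5, while others, such as 1700018L02Rik at -2.45 and Ak3 at 0.21, lie far below it.

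The 5′ ends of 23 members lie within 1000 bases of the 5′ end of a gene on the other strand. The members' median log2 change was -0.86 and that of the neighbours -0.19, and 3 of 8 members at -1 or less had a neighbour at -1 or less. The log2 changes of members and neighbours had a Pearson correlation of 0.12, and 17 pairs had the same sign. Gm45124, a neighbour chosen after its values were seen, had a mean of only 0.0788 CPM and a log2 change of 4.165 (SE 1.35). 1700003E16Rik and Wdr54, a pair chosen after its values were seen, start 7 bases apart. Their log2 changes were -1.31 (SE 0.404) and -1.14 (SE 0.305). 1700104B16Rik and Gtf2e2, a subunit of the general transcription factor TFIIE, start 14 bases apart and had -1.62 (SE 0.313) and -0.37 (SE 0.164).

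RefSeq promoters (250 bases before to 50 after the start, GRCm38.p6) were matched for 80 members. They were searched on both strands for short motifs of factors active in spermatocytes or spermatids. The MYB core CAGTTG was in 26.2% of the members' promoters, against 15.4% of all 27025 in the table and 12.8% of those of genes with a mean count of at least 100. The RFX motif GTTGCCA was in 8 of the 80 members' promoters, 5.02% of all and 4.75% of genes at that count. The TCFL5 motif CACGNGC was in 22.5% of the members', 12.8% of all and 21% of those at that count (2489 of 11863), so close to the members' share. For the CREM site TGACGTCA the shares were 2.5%, 2.03% and 3.41%, and for the MYB palindrome AACNGTT they were 1.25%, 5.01% and 4.17%. The MYB motifs can overlap each other, and the MYB core can overlap the RFX motif in CAGTTGCCA.

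The MYB core was in 35.3% of the 34 promoters of members at a log2 change of -1 or less. It was in 20.5% of the 44 promoters of members lower without overlap and in 33.3% of the other 36, so the order depends on which measure splits the members. These are descriptions of letters, not of bound sites. In 5 members that were lower without overlap, the 120 bases before the start hold such a motif and overlap no annotated exon. The 4 with the lowest log2 change are shown, chosen after the values were seen. Capitals mark the match on either strand, a MYB core in 1700029F12Rik, a MYB core overlapping an RFX motif in 1700010I14Rik, and a TCFL5 motif in the other 2.
1700029F12Rik, chr13:97034363-97034482, minus strand: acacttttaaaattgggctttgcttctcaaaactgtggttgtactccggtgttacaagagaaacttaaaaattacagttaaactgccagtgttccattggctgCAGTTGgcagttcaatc
1700010I14Rik, chr17:8988213-8988332, plus strand: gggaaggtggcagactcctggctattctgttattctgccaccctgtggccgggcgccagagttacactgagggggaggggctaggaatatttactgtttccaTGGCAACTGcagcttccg
1700028I16Rik, chr10:82812003-82812122, plus strand: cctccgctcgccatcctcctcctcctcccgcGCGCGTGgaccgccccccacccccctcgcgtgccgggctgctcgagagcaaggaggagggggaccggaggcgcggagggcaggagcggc
1700008J07Rik, chr7:127512870-127512989, minus strand: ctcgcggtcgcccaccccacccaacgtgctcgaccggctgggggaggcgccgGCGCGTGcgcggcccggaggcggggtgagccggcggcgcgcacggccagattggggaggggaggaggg

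The MYB core of 1700029F12Rik begins 17 bases before the start, and in 1700010I14Rik the RFX motif begins 18 and the MYB core 15 bases before it. 1700010I14Rik had 20.3 and 28.8 CPM in Znhit1_KO testes, against 40.7 and 85.8 CPM in CTRL testes, and 1700028I16Rik 0.829 and 0.958 CPM in Znhit1_KO testes, against 1.95 and 3.82 CPM in CTRL testes. DESeq2 called both lower, at adjusted p of 0.014 and 0.0129. 1700008J07Rik had 6.01 and 6.38 CPM in Znhit1_KO testes, against 8.84 and 11.1 CPM in CTRL testes, with a DESeq2 adjusted p of 0.192.

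The regulators of these motifs and others known in pachytene or ciliated cells form a list of 12 genes, none of which passed edgeR's or DESeq2's test. Their median log2 change was -0.40. Crem, the spermatid activator, had 17.8 and 21.6 CPM in Znhit1_KO testes, against 28.4 and 49.7 CPM in CTRL testes (log2 change -0.99, SE 0.308). Rfx2 and Mybl1 were also lower without overlap, at -0.69 and -0.30, and Foxj1 was higher, at 0.77. In all, 3 of the 12 (25%) were lower and 1 (8.33%) higher without overlap, against 21.3% and 21.8% of all genes tested. The groups overlapped for Rfx4 at -1.05, Tcfl5 at -0.61 and Rfx3 at 0.06. Of the 12 genes, 9 had negative changes and 3 positive ones.

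The members also differed between replicates of 1 group. CTRL library 2 was above CTRL library 1 in 93 of 110 members, by a median of 0.71 on the log2 scale and at least 2-fold in 43, and Znhit1_KO library 2 was above Znhit1_KO library 1 in 83, by a median of 0.41. Znhit1_KO library 1 was below CTRL library 1 in 89 members and Znhit1_KO library 2 was below it in 71. Of all 24116 genes tested, CTRL library 2 was above CTRL library 1 in 12774. Znhit1_KO library 2 was above Znhit1_KO library 1 in 11810 of them. Znhit1_KO libraries 1 and 2 were below CTRL library 1 in 11090 and 12266 of all genes. The summed level of the members was 1277 and 1521 CPM in Znhit1_KO testes, against 1687 and 2755 CPM in CTRL testes, so the libraries of each group did not overlap.

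Some marker lists ordered the libraries in the same way. The members' mean log2 level, relative to its mean over the 4 libraries, was -0.65 and -0.26 in the Znhit1_KO libraries, against 0.08 and 0.82 in the CTRL libraries. For 26 pachytene spermatocyte genes it was -1.34 and -0.53 in Znhit1_KO, against 0.32 and 1.55 in CTRL, and 22 of the 26 were lower without overlap. For 29 tested genes of the flagellum it was -1.12 and -0.70 in Znhit1_KO, against 0.46 and 1.36 in CTRL. For 16 early meiotic prophase genes it was -0.36 and -0.02 in Znhit1_KO, against 0.04 and 0.34 in CTRL. Of these 16 genes, 14 had negative log2 changes, and 8 were lower and 0 higher without overlap. The mean of the 14 spermatogonium genes lay between -0.02 and 0.02 in all 4 libraries. Of these genes, 7 had negative and 7 positive log2 changes, with 2 lower and 1 higher without overlap. The 22 Sertoli cell genes lay at 0.37 and 0.06 in Znhit1_KO, against -0.18 and -0.26 in CTRL, with 16 higher without overlap and summed levels of 9263 and 7792 CPM in Znhit1_KO, against 6555 and 6765 CPM in CTRL. Of the other somatic lists, 10 of 11 Leydig cell genes and 10 of 10 macrophage genes had positive log2 changes, with 6 and 3 higher without overlap. All 8 endothelial genes were positive, with 2 higher without overlap, while 4 of the 8 peritubular myoid genes were negative and 1 was higher without overlap. Over all 24116 genes tested, 12795 had positive changes, and 21.3% were lower and 21.8% higher without overlap. The shares higher without overlap were 30% of the macrophage, 25% of the endothelial and 12.5% of the peritubular myoid genes.

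Of 21 round spermatid genes 12 were tested, with summed levels of 20.1 and 27.0 CPM in Znhit1_KO, against 36.0 and 75.5 CPM in CTRL. Without overlap, 7 of the 12 were lower and 1 was higher, and DESeq2 called 3 lower and 1 higher. The protamine and transition protein genes Prm1, Prm2 and Tnp1 did not pass the filter on low counts, while Tnp2 and Odf1 of the same list did. In bulk testis, fewer cells of a type and less RNA per cell cannot be told apart, and the part of cell composition in the members' levels was not tested.

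**Figure D5:**
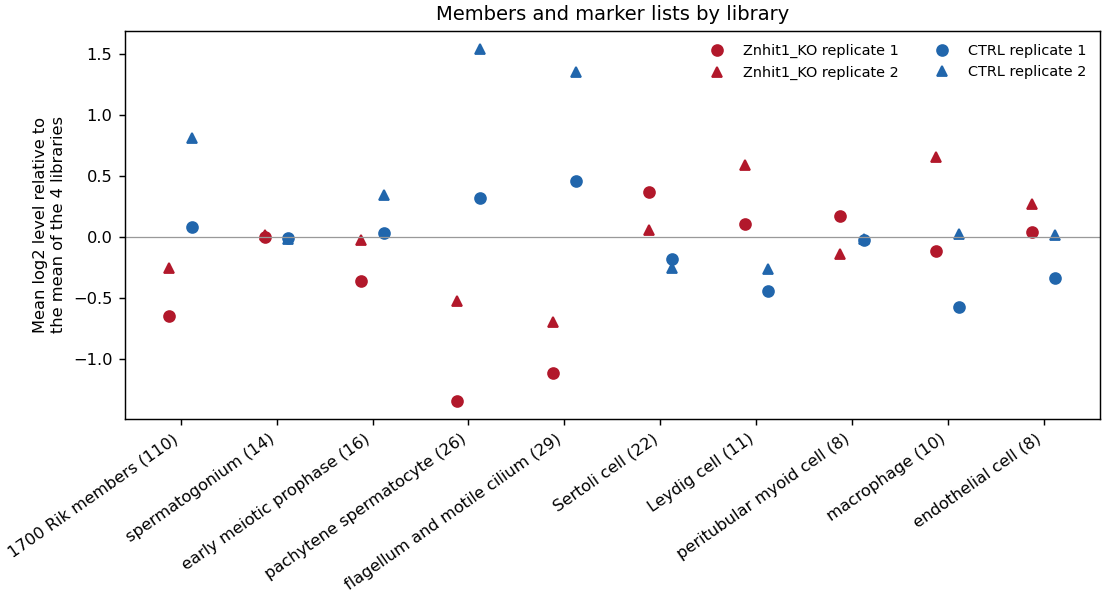
Mean log2 level of each list's tested genes, relative to the mean of the 4 libraries (vertical axis), in the 2 Znhit1_KO and 2 CTRL libraries. The members run from -0.65 to 0.82 and the pachytene list from -1.34 to 1.55, while the spermatogonium list stays near 0.

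Other clone-named genes with a mean count of at least 100 are set beside the members as counts. The 173 genes of the other RIKEN testis clone series had a median log2 change of -0.66, with 90 lower and 21 higher without overlap. The other 432 Rik genes had a median of 0.09, with 79 lower and 92 higher, and the 1738 numbered Gm genes had a median of -0.005, with 378 lower and 267 higher. The 137 tested 1700 Rik genes under a mean count of 100 had a median of -0.75, with 60 lower and 11 higher. Their levels were near the floor, with medians of 0.127 and 0.159 CPM in Znhit1_KO, against 0.237 and 0.280 CPM in CTRL. A gene can pass the filter on low counts through 1 group alone. Over all genes tested, 21.3% were lower and 21.8% higher without overlap.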

How the data were processed

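Poly(A) RNA-seq of P14 testes was analysed from the estimated counts per gene that the authors deposited as whole numbers. Per the submitters' processing notes, HISAT2 2.2.1, StringTie 2.2.1, cutadapt 2.5, DESeq2 1.38.3 and mm10 were used, with no settings given. Totals of these estimated counts are not numbers of reads. The authors' deposited table gives TPM, a normalised base mean (a signal), log2 fold changes, a test score, p-values and adjusted p-values, of which TPM, log2 changes and adjusted p were used.

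From the counts, 24116 genes passed edgeR 4.0.16's filterByExpr and were fitted with TMM scaling and the quasi-likelihood F-test over all 4 libraries, with Benjamini-Hochberg adjustment over all genes. R 4.3.3, limma 3.58.1 and DESeq2 1.42.0 served the alternatives. The fit was tested on simulated data. Gene positions and types are from GENCODE M21 (mm10). A near-identical copy is a match of at least 200 bases at 95% identity or more. No overlap means that both libraries of a group lie outside the range of the other group in CPM. Relative list levels used a pseudocount of 0.1 CPM.

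The members, lists and tests were chosen with earlier results of these data known. Named members are the 10 lowest and 5 highest log2 changes, all with a mean CPM of at least 1, the 6 highest mean CPM, the 6 lowest p, the 3 nearest 0 among those with a mean CPM of at least 5, and the 2 on each side of the count limit; others are said to be chosen later. Protein sequences were not used here. Standard errors and p-values cover 2 libraries a group.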

Additional observations from a re-analysis of the deposited data

How the results depend on the processing

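The median log2 change of the members stayed negative under all 14 alternatives, from -1.17 (members with no exon overlap) to -0.43 (without CTRL replicate 2). Calls at an adjusted p of 0.05 depended on the test. There were 0 with edgeR, with RLE, total count or Sertoli list scaling, without the filter and with limma-voom, but 31 with DESeq2. Leaving out single libraries gave 0 to 25 calls, and the 25 came without CTRL replicate 1, where 754 of all genes were called. Same-numbered libraries deviated together (correlation 0.421), but the labels do not pair them. With the replicate number as a block, 54 members were called (53 lower, 1 higher, of 2737 genes in all). At an unadjusted p under 0.05 the block gave 66 lower and 8 higher members, beside 42 and 1 without it. Outside the main fit no share of all genes is given at that unadjusted p, so such counts only describe the members.

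With single libraries left out, members lower at an unadjusted p under 0.05 numbered 19 (without CTRL replicate 2) to 58, with 25 without Znhit1_KO replicate 1, and higher members 1 to 2. Members higher without overlap then numbered 13 to 18 and lower ones 63 to 87, where fewer libraries make overlap rarer by construction. Scaling to the Sertoli list moved the median of all genes to -0.32 and that of the members to -1.07, left 1 of the 10 members higher without overlap, and left 0 higher at an unadjusted p under 0.05, as limma-voom did. At a mean count of at least 50, which takes in 150 genes, 17 were higher without overlap and 3 higher at an unadjusted p under 0.05. Among the 64 members with no exon overlap, 33 were lower and 4 higher without overlap, and 26 were lower at an unadjusted p under 0.05.

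Of 27 named members, 8 changed sign, in 11 fits. Under Sertoli list scaling these were 1700017B05Rik (-0.20) and 1700123O20Rik (-0.18). With single libraries left out, the log2 change ran from -1.53 (without Znhit1_KO replicate 1) to 2.15 for 1700030C10Rik (ENSMUSG00000099759.1), -0.045 (without Znhit1_KO replicate 1) to 0.29 for 1700017B05Rik, and -0.22 to 0.0063 (without Znhit1_KO replicate 1) for 1700048O20Rik. It ran from -0.91 to 0.0022 (without CTRL replicate 2) for 1700037H04Rik and -1.11 to 0.11 (without CTRL replicate 2) for 1700102P08Rik. For 1700013H16Rik it ran from -0.36 to 0.15, with 0.017 without CTRL replicate 2, and for 1700016F12Rik from -0.54 to 0.22, with 0.13 without CTRL replicate 2. The causes were not tested. With 2 libraries a group, the common biological coefficient of variation was 0.349.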
